A study of Mus musculus with 4 samples.

Results

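Krt6a, Krt6b, Krt16 and Krt17 are the wound-induced keratins of mouse epidermis, and their values are described here across 4 expression arrays of embryonic basal epidermal cells. The annotation named 18193 genes on the array, and gave these 4 genes 8 of the 45037 probe sets that are not controls. Of these, 7 carried a single gene name and 1 was annotated to both Krt17 and Krt14. The genes were chosen by their names as wound-induced keratins, with the differences in signal between cKO and het arrays already known from these data, so their differences between the groups are given as a description, without a test. The cKO cells came from embryos with both Srf alleles floxed, and the het cells from embryos with 1 floxed Srf allele, which the series' design text calls wild type. Both groups carried K14-Cre, which acts in keratin 14-expressing cells of the basal epidermis, and the ROSA26 YFP reporter, and were collected at E16.5. Cells were sorted on α6 integrin and YFP. Each group had 2 samples, Ko_1210 and KO_1261 in cKO and het_1210 and het_1261 in het. Samples whose titles share a number are called the first pair (Ko_1210, het_1210) and the second pair (KO_1261, het_1261). No label says what the numbers mark, or whether a sample was 1 embryo or a pool.

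Keratins form filaments from pairs of a type I and a type II chain. Krt6a and Krt6b encode near-identical type II keratins, while Krt16 and Krt17 encode type I keratins that pair with them. In adult skin these genes are largely restricted to hair follicles, nails and palms or soles, and they are induced in the epidermis bordering a wound. In the mouse embryo Krt17 also marks hair placodes and the periderm, the outermost embryonic layer. The product of Srf, serum response factor, activates cytoskeletal and immediate early genes.

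Both Srf probe sets were lower in cKO. The brighter one had a signal of 47.9 in Ko_1210 and 80.4 in KO_1261, against 834 in het_1210 and 1108 in het_1261. Markers of basal epidermis were bright in both groups: the signal of Krt14 was 53068 and 36033 in cKO and 59598 and 35520 in het, in the order of the pairs, and that of Itga6, the α6 integrin used in the sort and named for that after its values were seen, was 9219 and 10725 in cKO and 6610 and 12525 in het. The pairs also differed technically. Spiked-in poly-A controls were 2.80-fold higher in Ko_1210 than in KO_1261 and 2.45-fold higher in het_1210 than in het_1261 (median of 24 probe sets). Each comparison is therefore given within each pair too, as the log2 difference cKO minus het on the log2(signal + 1) scale.

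The type II keratins were higher in cKO, mostly within the second pair, while the type I keratins were lower within the first pair and nearer to het, or above it, within the second pair. Krt6b showed the widest difference. The Krt6b probe set (1422588_at) had a signal of 142 in Ko_1210 and 906 in KO_1261, against 48.2 in het_1210 and 21.3 in het_1261. The cKO arrays did not overlap the het arrays, and KO_1261 was by far the brightest. The difference was 1.54 within the first pair and 5.35 within the second pair, a mean of 3.44 ± 0.997 (SE of the limma fit without a block, n = 2 per group). In linear signal this was 2.94-fold within the first pair and 42.5-fold within the second pair.

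The size of the Krt6b difference is imprecise. Both het signals lay below 65.9, the median level under which probe sets were left out of the tests, so Krt6b entered the tests only through its cKO arrays. Adding 64 instead of 1 to every signal before taking logs lowered its mean difference to 2.19. The deposited values came without detection calls, so it cannot be said whether Krt6b was detected in het.

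Krt6a was read by 3 probe sets. The brightest, 1422784_at, had a signal of 196 in Ko_1210 and 886 in KO_1261, against 193 in het_1210 and 142 in het_1261. Only KO_1261 stood apart from the other arrays: the arrays of the first pair differed by 0.019 on the log2 scale and those of the second pair by 2.63, with a mean of 1.32 ± 0.76 (SE). Without KO_1261 the mean difference was 0.24.

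The other Krt6a probe sets gave the same picture within the second pair and differed within the first pair. The signal of 1427700_x_at was 149 in Ko_1210 and 348 in KO_1261, against 103 in het_1210 and 68.2 in het_1261, and both cKO arrays were above both het arrays. Its differences were 0.52 within the first pair and 2.34 within the second pair. The signal of 1422783_a_at was 55.1 in Ko_1210 and 355 in KO_1261, against 60.3 in het_1210 and 128 in het_1261. Here the groups overlapped, with differences of -0.13 within the first pair and 1.46 within the second pair.

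The annotation assigned the Krt6a and Krt6b probe sets to 1 gene each. In the array maker's naming, the suffix _x_at marks a probe set with probes that can also match other transcripts, and _a_at a probe set that reads several transcripts of 1 gene. Because the 2 genes are near-identical paralogs, signal of one gene in the probe sets of the other was not tested.

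**Figure D1:**
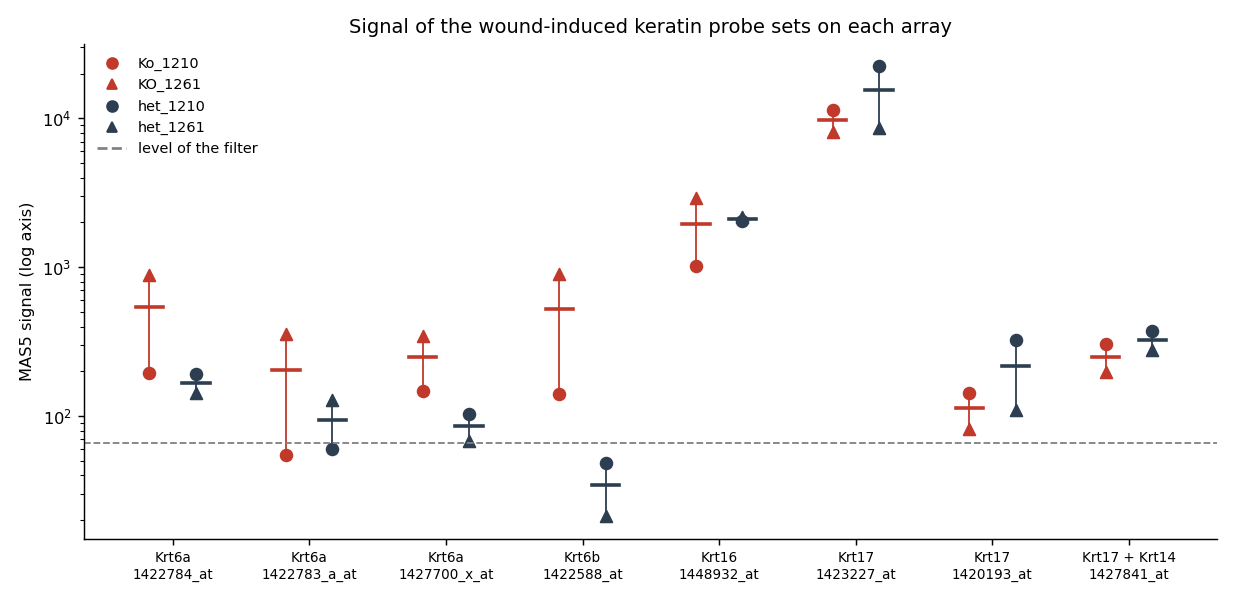
MAS5 signal (log axis) of the 8 probe sets on each array, cKO (red) left of het (dark), with circles for the first pair, triangles for the second pair and a short bar at the mean of each group (n = 2). For Krt6b and all 3 Krt6a probe sets the KO_1261 triangle lies highest, and both Krt6b het points lie under the dashed filter level of 65.9.

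Krt16, the type I keratin most often used with Krt6 as a marker of activated keratinocytes, had a signal of 1026 in Ko_1210 and 2912 in KO_1261, against 2036 in het_1210 and 2172 in het_1261. The het arrays were alike and the cKO arrays lay on either side of them, 1 below and 1 above. The difference was -0.99 within the first pair and 0.42 within the second pair, a mean of -0.28 ± 0.52 (SE). Its SD in linear signal was 1333 around a mean of 1969 in cKO and 96.1 around 2104 in het.

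Krt17, which in the embryo is expressed in developing follicles and epidermis, had a signal of 11473 in Ko_1210 and 8049 in KO_1261, against 22346 in het_1210 and 8581 in het_1261 for its brighter probe set, 1423227_at. Het_1210 stood above the other 3 arrays and the groups overlapped. The difference was -0.96 within the first pair and -0.09 within the second pair, a mean of -0.53 ± 0.52 (SE), and without het_1210 it was 0.16. The dimmer Krt17 probe set, 1420193_at, had a signal of 144 in Ko_1210 and 82.4 in KO_1261, against 322 in het_1210 and 110 in het_1261, with differences of -1.16 and -0.41 in the order of the pairs.

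The probe set shared by Krt17 and Krt14, 1427841_at, cannot be given to either gene. Its signal was 305 in Ko_1210 and 198 in KO_1261, against 376 in het_1210 and 277 in het_1261. The groups overlapped, and the differences of -0.30 within the first pair and -0.48 within the second pair were smaller within the first pair, and larger within the second pair, than those of the brighter Krt17 probe set. For Krt14 alone the differences were -0.17 and 0.02.

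Set against all 22518 tested probe sets, the wound-induced keratins stood in different places in the pairs. Within the second pair, Krt6b had the highest difference of all, and the Krt6a probe sets 1422784_at, 1427700_x_at and 1422783_a_at had 9, 15 and 42 probe sets as high or higher, themselves included. Within the first pair, 223 probe sets reached the Krt6b difference, which is 0.990% of those tested, and 10767 reached that of 1422784_at, which is 47.8%. For Krt16 and the brighter Krt17 probe set, 3.27% and 3.49% of tested probe sets were as low or lower within the first pair, against 93.9% and 36.2% within the second pair. These ranks restate the values by which the genes were chosen and carry no test.

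**Figure D2:**
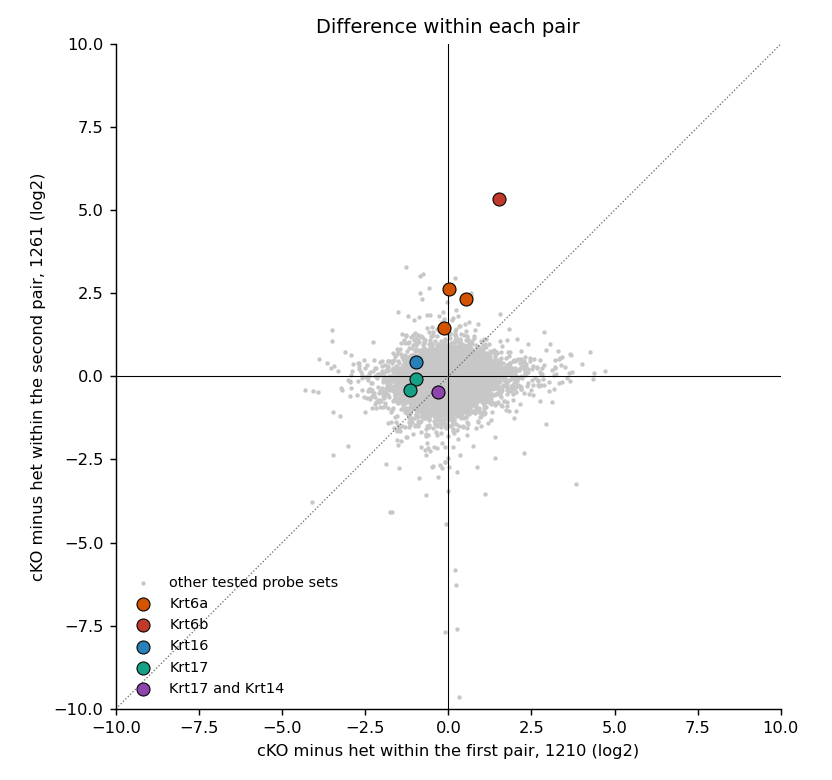
Log2 difference cKO minus het within the first pair (x axis) and within the second pair (y axis) for each of the 22518 tested probe sets (grey) and the 8 wound-induced keratin probe sets (coloured), with a dotted line of equal differences. Krt6b, at 1.54 and 5.35, lies highest on the y axis, and the 3 Krt6a probe sets lie between 1.46 and 2.63 on the y axis and between -0.13 and 0.52 on the x axis.

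Both cKO arrays were above both het arrays at 3 of the 8 probe sets, against 7.91% of all tested probe sets. They were the probe sets of Krt6b and 1422784_at and 1427700_x_at of its near-identical paralog Krt6a. For 1422784_at the margin was 196 in Ko_1210 against 193 in het_1210. Both cKO arrays were below both het arrays at 0 of 8, against 10.4%, and the groups overlapped at 5, against 81.7%. Within both pairs 3 of the 8 were higher (26.3% of all tested), 3 were lower (29.1%) and 2 had opposite signs (44.6%). Krt6b was the only 1 of the 8 that exceeded 1.5-fold in the same direction within both pairs, which 0.537% of all tested probe sets did on the higher side.

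In limma without a block 0 of the 22518 probe sets passed a Benjamini-Hochberg adjusted p of 0.05, a called share of 0%, and 108 had an unadjusted p under 0.05. With the title number as a block 194 passed (0.862%), of which 82 were higher in cKO (0.364%) and 112 lower (0.497%). The 82 higher probe sets included those of Krt6b and the brightest of Krt6a, and 0 of the other 6. With the block and a prior variance robust to outlying probe sets, 84 passed (0.373%), of which 30 were higher (0.133%), and 0 of the 8 were among them. The choice of these genes rested on this contrast, so the counts say nothing further about them. From here on, a gene is said to have risen or fallen only where the blocked fit called it.

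The pairs also differed in sex-linked transcripts, named after their values were seen. Xist, the RNA of the inactive X chromosome, gave a signal of 115 in Ko_1210 and 22802 in KO_1261, against 62.6 in het_1210 and 14338 in het_1261 (the brightest of 3 probe sets), so both arrays of the second pair were high. Transcripts of Eif2s3y, a gene of the Y chromosome, gave a signal of 1386 in Ko_1210 and 3.01 in KO_1261, against 1485 in het_1210 and 834 in het_1261, so KO_1261, the array with the highest signal of Krt6a, Krt6b and Krt16, was low in it and het_1261 was high in both. The part of embryo sex in the keratin differences was not tested.

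None of the other tested keratins reached the difference of Krt6a within the second pair. Of 18 other keratin genes tested, 3 were above and 15 below 0, with a median difference of -0.17, where the median of all tested genes was -0.02. With quantile normalization or median centring, 5 of the 18 were above 0. The differences of these 18 genes ranged from -2.30 to 0.23 within the second pair and from -1.51 to 2.28 within the first pair. Within the first pair Krt78 (2.28) and Krt77 (2.03), named after their values were seen, lay above Krt6b (1.54). Krt5, the type II partner of Krt14 in basal cells, differed by -0.12 (-0.19 and -0.06 in the order of the pairs) and did not pass.

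Of the 18 genes 2 fell and 0 rose with the block, and 0 passed without it. Of all 11055 tested genes 0.877% passed with the block, 0.253% higher in cKO and 0.624% lower. Krt1 and Krt10, the keratin pair of the spinous layer above the basal cells, fell by 0.80 (-1.16 and -0.43, limma adjusted p = 0.00128 with the block) and by 0.66 (-0.90 and -0.42, adjusted p = 0.00340). Krt79, a keratin of the follicle opening, differed by -1.003 (-1.51 and -0.49) and did not pass. It was named after its values were seen, as the lowest of the 18. Of the 17 hair follicle keratins on the array 3 were tested, the other 14 being too dim. Krt75, a type II keratin of the follicle's companion layer that neighbours Krt6b, was below the filter on every array, with a signal of 40.5 in Ko_1210 and 27.05 in KO_1261, against 19.7 in het_1210 and 60.8 in het_1261.

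**Figure D3:**
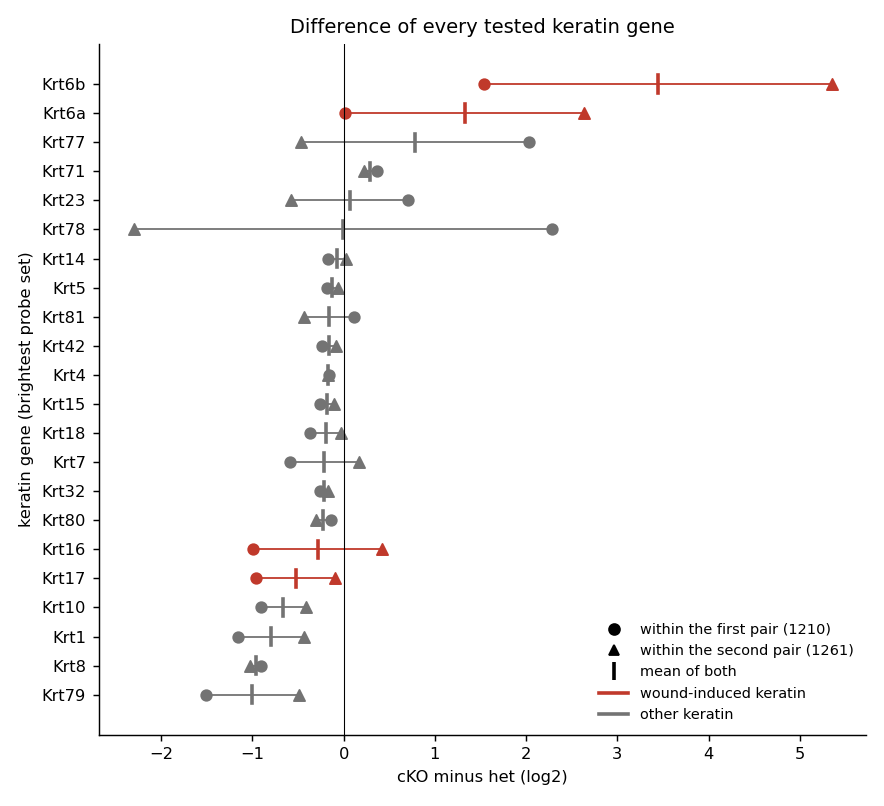
Log2 difference cKO minus het of the 22 tested keratin genes (brightest probe set each), with circles for the first pair, triangles for the second pair and a bar at the mean. Krt6b and Krt6a (red) lie at the top, with means of 3.44 and 1.32, and Krt16 and Krt17 (red) lie among the other keratins at -0.28 and -0.53.

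Krt6a and Krt6b lie next to each other on chromosome 15, between Krt75 and Krt5, and Krt16 and Krt17 lie next to each other on chromosome 11, between Krt14 and Krt42, in the gene order of the RefSeq GRCm38.p6 annotation. Counting up to 4 genes with a probe set on each side, the 4 genes had 16 other neighbours. Of these 7 were bright enough to test, 2 above and 5 below 0, with a median of -0.12, and 0 passed with or without the block. Krt5, the nearest tested neighbour of Krt6a, is given above. Krt71, the next tested gene beyond Krt5 and a keratin of the inner root sheath, differed by 0.29 (0.36 and 0.23). Krt42, beside Krt17, differed by -0.16 (-0.24 and -0.09).

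No tested gene lay close to Krt6b by a distance that counts the size of differences as well as their shape. Krt6b had the highest difference of all tested probe sets within the second pair. A wide distance follows largely from that size and says little about shape. Likeness was measured as the Euclidean distance between log2 values of the 4 arrays, each gene centred on its own mean, over 11051 genes. The nearest was Tm4sf1, a tetraspanin-like membrane protein, at a distance of 2.64, where the whole Krt6b profile spanned 4.01 from its mean. Krt6a itself was 2.20 from Krt6b. Cxcl11, an interferon-induced chemokine, and Pde6h followed at 2.73 and 2.86.

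For Krt6a the nearest genes were Tm4sf1 at 0.61, Cxcl11 at 0.81 and Sting1, a sensor adaptor of cytosolic DNA signalling, at 1.12. Tm4sf1 had a signal of 69.1 in Ko_1210 and 208 in KO_1261, against 56.0 in het_1210 and 57.9 in het_1261. As with Krt6a, KO_1261 alone stood out. The genes nearest to Krt16 were Syne1 (0.01), Slc2a4rg-ps (0.17) and Pde1a (0.21), all of them far dimmer, and those nearest to Krt17 were Hs3st6 (0.11), Limk1 (0.11), a kinase of the actin regulator cofilin, and Arrdc4 (0.13). With 4 arrays such likeness is common by construction and is given as a description.

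Genes that accompany these keratins in wounded or inflamed epidermis were counted from a list. Of 26 wound and alarmin genes on the array 16 were tested: 6 were above 0 and 10 below, with a median of -0.13 (0.18 within the first pair and -0.0049 within the second pair). Without centring, 46.2% of all tested genes were above 0. Median centring gave 8 of the list above 0, but it raised the background as well. The median difference over all tested genes was then 0.10, so most of them lay above 0. The centred counts of this and the other lists are therefore not to be read against the shares without centring. Sprr1b, a small proline-rich precursor of the cornified envelope, was the 1 gene that rose with the block (0.253% of all tested genes) and 0 fell. It rose by 1.31 (2.88 and -0.26, adjusted p = 0.0456), with a signal of 707 in Ko_1210 and 1056 in KO_1261, against 95.0 in het_1210 and 1265 in het_1261. The low het_1210 value set it apart, not a high KO_1261 value, and the call ended with the robust prior (adjusted p = 0.910).

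The alarmin subunits S100a8 and S100a9, among the genes most induced with Krt6 and Krt16 in inflamed skin and named here for that role after their values were seen, were dim. S100a9 had a signal of 66.7 in Ko_1210 and 178 in KO_1261, against 101 in het_1210 and 139 in het_1261, and differed by -0.12. S100a8 lay below the filter and was lower in both cKO arrays, with 15.6 and 32.4, against 74.7 and 53.1 in het. The gap junction genes Gjb2 and Gjb6, whose connexins increase at wound edges and which were also named after their values were seen, differed by 0.27 and 0.28 without overlap of the groups, and did not pass.

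Regulators known to act on the promoters of these keratins were counted from lists. Of 9 tested AP-1 factors 8 were above 0 (46.2% of all tested genes), with a median of 0.24 (0.42 within the first pair and 0.14 within the second pair), and 2 rose with the block (0.253% of all tested genes). Jun rose by 1.26 (2.29 and 0.23) and Atf3 by 1.14 (2.02 and 0.25). Both differences lay mainly within the first pair, and both limma calls ended with the robust prior (adjusted p = 0.868 and 0.865). All 9 AP-1 factors were brighter in the second pair than in the first in both groups, as were 29.8% of tested genes. Fosl1, named after its values were seen, had a signal of 208 in Ko_1210 and 3835 in KO_1261, against 198 in het_1210 and 2869 in het_1261. In het, Krt6b and the Krt6a probe sets 1422784_at and 1427700_x_at were dimmer in het_1261 than in het_1210. Both Krt6b het signals lay under the filter. The Krt6a probe set 1422783_a_at was brighter in het_1261. The part of AP-1 factors in the keratin differences was not tested.

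Of 11 tested genes of the NRF2 pathway, the oxidative stress response that also acts on Krt6a, Krt16 and Krt17, 4 were above 0. The median was -0.03 and 0 passed with the block. After median centring, which put most of all tested genes above 0, 8 of the 11 were above 0. The brightest tested members of the pathway, Gstp1 and Txnrd1, differed by -0.23 (-0.40 and -0.05) and 0.46 (0.57 and 0.34). Neither passed. Of 11 tested genes of STAT signalling 7 were above 0 (10 after median centring) with a median of 0.13 and 0 passed; Socs3, a feedback inhibitor, differed by 0.36 and Jak1 by 0.14. Of 7 tested Hedgehog pathway genes, which include the Gli factors that act on Krt17, 4 were above 0 (5 after median centring) with a median of 0.05 and 0 passed. Ptch1 differed by 0.13 and Gli2 by 0.11. Of 12 tested genes that anchor keratin filaments, such as Dsp (0.04) and Pkp1 (-0.15), 5 were above 0 (8 after median centring), the median was -0.07 and 0 passed.

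In bulk samples fewer cells of a type and less RNA per cell cannot be told apart. Of 9 periderm markers 7 were tested, 3 above and 4 below 0, with a median of -0.17, and 0 passed. Their summed signal was 2275 in Ko_1210 and 4049 in KO_1261, against 2219 in het_1210 and 3315 in het_1261, so the sum was highest in KO_1261. The brightest of the list was Cldn4, a tight junction claudin, with 962 in Ko_1210 and 2335 in KO_1261, against 598 in het_1210 and 1712 in het_1261. The next brightest, Grhl3, a transcription factor of epidermal barrier formation, differed by 0.11 and did not pass. Krt8 and Krt19, simple epithelial keratins, were named after their values were seen. Krt8 was lower in both cKO arrays, with 122 and 91.4 against 229 and 187 in het. Krt19 was near the bottom of the scale on all arrays, between 6.41 and 29.98. The part of periderm in the Krt6 differences was not tested.

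Of 10 tested markers of hair placodes and outer root sheath 2 were above and 8 below 0, against 53.8% of all tested genes below 0. Their median was -0.35 (-0.44 within the first pair and -0.20 within the second pair). Of the list, Lhx2, which maintains follicle progenitor cells, fell by 1.21 (-1.66 and -0.75, limma adjusted p = 0.00587 with the block) and 0 rose. Of all tested genes 0.624% fell and 0.253% rose. The summed signal of the list was 3006 in Ko_1210 and 3089 in KO_1261, against 5012 in het_1210 and 3457 in het_1261. Het_1210, which had the highest sum, was also the array with the highest Krt17 signal; the part of follicle cells in that difference was not tested.

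Most tested markers of other cell types were below 0 too. A gate on YFP driven by K14-Cre would be expected to leave out most cells outside the epithelium. Of 12 tested dermal fibroblast markers 10 were below 0 (8 after median centring, and 53.8% of all tested genes without it), with a median of -0.60 (-0.92 and -0.18), and Col3a1, Twist2 and Vim fell by 0.62, 1.21 and 0.71 (0.624% of all tested genes fell). These calls ended with the robust prior (adjusted p = 0.106, 0.142 and 0.301). The summed fibroblast signal was 57952 in Ko_1210 and 58180 in KO_1261, against 71629 in het_1210 and 62808 in het_1261. Of the 5 melanocyte, 3 immune and 4 endothelial markers tested, all were below 0 (all but 1 after median centring). Laptm5 of the immune list fell by 1.47, a call that ended with the robust prior (adjusted p = 0.0682). The 2 erythroid and 4 Merkel cell markers on the array were too dim to test, and of the skeletal muscle markers 1 was tested and did not pass. The part of these cells in the keratin differences was not tested.

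The difference of Krt6b stayed above 0 within both pairs and under every other way of computing it that was tried. That of the brightest Krt6a probe set did too, but it was only 0.019 within the first pair. The Krt6a probe set 1422783_a_at turned to -0.13 within the first pair and to -0.66 without KO_1261. With 1 array left out, Krt6b ranged from 2.11 without KO_1261 to 4.78 without Ko_1210, and Krt6a from 0.24 without KO_1261 to 2.41 without Ko_1210. The sign of Krt16 turned without Ko_1210 (0.47) and within the second pair (0.42), and that of Krt17 without het_1210 (0.16). Quantile normalization, median centring and larger pseudocounts changed no sign of the 8 probe sets.

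**Figure D4:**
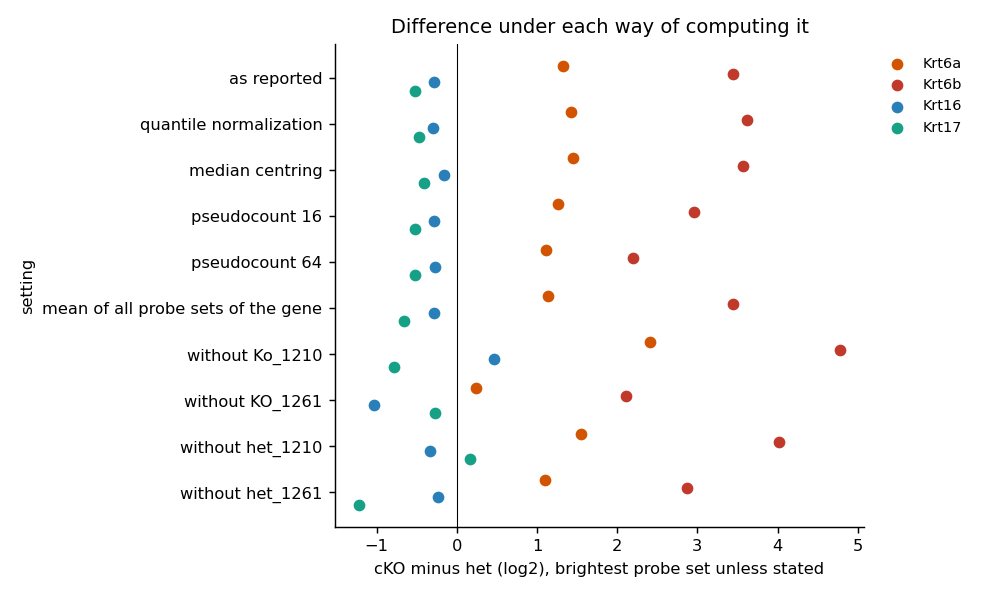
Log2 difference cKO minus het of the 4 genes (brightest probe set each, unless the row names the mean of all probe sets) as reported and under 9 other settings, among them each array left out. Krt6b stays between 2.11 and 4.78, whereas Krt16 and Krt17 each cross 0 in 1 row.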

How the data were processed

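The deposited intensity values (linear, 1 for each probe set on each array) were produced by the authors with MAS5, as the submitters' processing notes record, from Trizol-extracted RNA that was biotin-labelled by 3' in vitro transcription, per the labels' protocols. The MAS5 settings are not given in the sources used here. Every array had a trimmed mean of 500.0 (2% off each end), so only changes relative to it can be seen. The 64 controls among the 45101 probe sets were left out. Names followed the platform annotation, brought up to date by Entrez identifier (34945 probe sets with 1 symbol, 34741 of them matched, 932 with several, 9160 with none), and the probe set with the highest mean signal represented a gene.

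With a pseudocount of 1, log2 values of the 22518 probe sets above the median mean level (65.9) were fitted in limma 3.58.1 under R 4.3.3 (eBayes with a variance trend, two-sided, p adjusted by Benjamini-Hochberg over those probe sets, threshold 0.05). There was no block, and the pairs served as a block in an alternative fit. Residual degrees of freedom were 2 without the block and 1 with it, where the prior held 34.4. The pairs' deviations from the group means correlated at 0.755, which does not show that they come from the same litter. The fits were tested on simulated data with planted differences that were alike in both pairs, and with noise taken from the blocked fit. The simulated data also held the observed shift of each probe set between the pairs, alike in both groups. There the blocked fit called most of the planted differences, and the fit without a block called none. Data made this way favour the blocked fit, so this outcome says nothing about its calls on the arrays. Data whose differences diverge between the pairs were not simulated. The number of arrays, 2 per group, limits the precision. The p-values reflect only the spread between these samples, part of which may be technical. In the blocked fit most of each variance came from the prior, estimated over all probe sets, and little from the probe set's own spread. A gene whose pairs differed widely, such as Sprr1b, could therefore still pass.

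The genes and lists were chosen with earlier results of these data known. All probe sets of the 4 genes are named, with the list genes that passed in either fit (else up to 2 of the brightest), the 3 genes nearest in pattern and chromosomal neighbours. Genes outside that rule are marked as named after their values were seen. Figures used matplotlib 3.10.9 and Python 3.11.15.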

Additional observations from a re-analysis of the deposited data

Results flagged for a closer look

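At 2 of the 8 probe sets the cKO array lay on opposite sides of the het array in the 2 pairs. For Krt16 (1448932_at) the difference within the second pair exceeded that within the first pair by 1.41 on the log2 scale, and for Krt6a (1422783_a_at) by 1.59. With 1 array per group in each pair, the difference between the pairs was not tested, and 44.6% of all tested probe sets had opposite signs.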

How the results depend on the processing

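Without a block 0 probe sets and 0 genes passed. With the title number as a block 194 probe sets and 97 genes passed, with the block and a robust prior 84 and 50, and with the block and median centring, an alternative chosen after seeing the data, 109 and 52. Centring turned the split of probe sets from 82 higher and 112 lower to 74 higher and 35 lower, where the median over all tested genes went to 0.10, against -0.02 without centring. The block without a variance trend, and the fits without a block and without a trend or a filter, gave 0. With 1 array left out 0 to 5 probe sets and 0 to 2 genes passed. The block left every keratin difference as it was (3.44 for Krt6b, 1.32 for Krt6a). Within the first and second pair the brightest probe sets gave 1.54 and 5.35 for Krt6b and 0.019 and 2.63 for Krt6a, and Krt16 turned to 0.42 within the second pair. With 1 array left out, Krt6b ranged from 2.11 to 4.78, Krt6a from 0.24 to 2.41, Krt16 from -1.03 to 0.47 and Krt17 from -1.22 to 0.16. The Krt6a probe set 1422783_a_at turned to -0.13 within the first pair and ranged from -0.66 without KO_1261 to 2.0001 without Ko_1210. Single arrays thus decide these values. The cause was not tested.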

Other observations

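Some cytokine genes of stressed keratinocytes, named after their values were seen, were too dim to test and followed the pairs. Tslp, an alarm cytokine released by keratinocytes, had a signal of 13.5 in Ko_1210 and 322 in KO_1261, against 5.11 in het_1210 and 139 in het_1261. Il24, a cytokine of the IL-10 family made at wound edges, had 5.76 in Ko_1210 and 225 in KO_1261, against 6.81 in het_1210 and 56.9 in het_1261. Ptgs2, the inducible cyclooxygenase, was tested and did not pass, with 117 in Ko_1210 and 1528 in KO_1261, against 297 in het_1210 and 710 in het_1261. For all 3 genes the second pair was brighter than the first in both groups and KO_1261 was the brightest array. Krt6b and the brightest Krt6a probe set shared the second feature and not the first, since both were dimmer in het_1261 than in het_1210. For Krt6b both het signals lay under the filter, so its part of this contrast is uncertain. The Krt6a probe set 1422783_a_at shared both features. The wound and alarmin list, from which the cytokine genes and Ptgs2 came, went both ways. S100a9, given above, also shared both features. Other genes of the list, named after their values were seen, shared the first feature but were brightest in het_1261. Hbegf had 659 in KO_1261 and 1581 in het_1261, Sprr1a 610 and 1259, Serpinb2 460 and 731, and Ereg 54.1 and 180.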
